A study of Mus musculus with 4 samples.

Results

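A peak list of TOP2B cleavage complexes in cultured mouse cortical neurons was examined. The summits studied lie in long noncoding RNA (lncRNA) genes and nowhere near a protein-coding gene. A summit, the base with the highest read pileup of a peak, was kept when it lay on an autosome, inside a gene that RefSeq types as lncRNA in mouse build GRCm38.p6, and more than 1 kb from every protein-coding gene. This rule kept 2335 of 35315 autosomal entries (6.61%), out of 35539 entries in the list. A q-value of 0.05 or less was reached by 523 of the 2335 (22.4%), beside 23.5% of all autosomal entries. Most entries are thus not established as enriched over input at that limit. The neurons were dissociated from embryonic day 16 cortex of Swiss-Webster mice, with the genotype given as WT, and every culture received 50 µM etoposide for 30 min before collection. The labels describe 2 libraries of native TOP2B immunoprecipitation (ChIP) and 2 of input DNA, all from etoposide-treated cells, so there was no untreated group. They do not say whether libraries came from separate cultures, or what other cell types the cultures held. The values are those of a single peak list pooled over libraries by the authors. There is thus no value per library, no spread between replicates and no test of a difference, and library depths are unknown. Intervals below are exact 95% intervals that cover counting error only and treat entries as independent. Coordinates are 1-based.

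TOP2B is the type II topoisomerase of postmitotic neurons. It relieves torsion and tangles in DNA by cutting both strands, passing another duplex through and resealing the cut. During that cycle the enzyme is covalently joined to the DNA ends, and etoposide holds it in this state, so that precipitated DNA marks places where the enzyme was engaged. Transcription is a main source of torsion. LncRNA genes are transcribed like other genes but their RNA is not translated, so they offer annotated transcripts away from coding genes. Which of them were transcribed in these neurons was not measured here. Many lie beside developmental regulator genes, some host microRNAs, and a few, such as Airn, can silence imprinted neighbours.

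The start window of a lncRNA gene held a summit with a q-value of 0.05 or less in 4 cases, and these windows are shown because the summit lies at or near an annotated lncRNA start. Each line is the RefSeq window of 300 bases, from 250 before to 50 after the start, read 5′ to 3′ on the strand of the gene. Capitals mark the summit and the 10 bases on either side.
Gm31814 start (chr16:24263137-24263436, minus strand): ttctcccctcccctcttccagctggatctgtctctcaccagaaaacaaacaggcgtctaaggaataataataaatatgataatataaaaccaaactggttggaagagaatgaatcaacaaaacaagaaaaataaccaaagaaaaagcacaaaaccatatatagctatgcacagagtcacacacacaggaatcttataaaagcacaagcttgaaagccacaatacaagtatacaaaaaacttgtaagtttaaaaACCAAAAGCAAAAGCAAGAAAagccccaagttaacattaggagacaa
Gm31842 start (chr11:55384253-55384552, minus strand): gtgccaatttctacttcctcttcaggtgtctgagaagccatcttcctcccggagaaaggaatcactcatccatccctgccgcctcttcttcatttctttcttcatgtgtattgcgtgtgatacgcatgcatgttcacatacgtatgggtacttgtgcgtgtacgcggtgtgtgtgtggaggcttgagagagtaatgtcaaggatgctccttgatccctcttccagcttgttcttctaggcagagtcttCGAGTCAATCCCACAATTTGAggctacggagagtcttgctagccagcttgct
Gm30095 start (chr10:111314296-111314595, minus strand): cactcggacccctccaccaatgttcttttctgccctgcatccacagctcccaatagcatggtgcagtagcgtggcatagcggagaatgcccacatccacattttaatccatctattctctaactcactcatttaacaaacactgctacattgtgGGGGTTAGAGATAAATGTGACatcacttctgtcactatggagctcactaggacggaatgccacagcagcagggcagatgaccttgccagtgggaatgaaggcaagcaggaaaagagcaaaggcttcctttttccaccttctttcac
Gm39033 start (chr7:71090747-71091046, plus strand): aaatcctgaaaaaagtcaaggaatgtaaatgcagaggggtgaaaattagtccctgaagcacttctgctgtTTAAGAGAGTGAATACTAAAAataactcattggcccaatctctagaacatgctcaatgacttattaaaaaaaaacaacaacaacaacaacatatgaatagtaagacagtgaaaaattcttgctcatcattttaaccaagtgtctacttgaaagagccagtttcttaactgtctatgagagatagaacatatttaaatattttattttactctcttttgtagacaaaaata

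In Gm31814, a predicted model with another annotated start for which the summit lies 7 bp upstream, the summit lay 13 bp inside the gene, with a fold over control of 3.63, a q of 0.00437 and 20 reconstructed ChIP fragments. Its window was poor in G and C (35%). It matched the loose AP-1 pattern TGANTCA as TGAATCA, with A where the pattern allows any base. In Gm31842, also a predicted model, the summit lay 8 bp inside, with a fold of 3.29 and 10 CpG dinucleotides in the window, and Sparc, a secreted matrix protein gene, was the nearest protein-coding gene at 9.87 kb. The summit beside Gm30095 lay 86 bp upstream of that start, inside the overlapping lncRNA gene Gm40760, with a fold of 3.11. The summit beside Gm39033 lay 170 bp upstream of that start, inside the lncRNA gene Gm36011, with a fold of 2.91. A further 9 genes had a summit within their start window, with folds from 2.05 to 2.77 and q from 0.110 to 0.575.

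A further member is shown because its peak covered a whole microRNA hairpin. Mirg, a lncRNA of the imprinted Dlk1-Dio3 region that hosts a large microRNA cluster, held 1 summit at 109740220 on chromosome 12. The peak ran from 109740118 to 109740578 and was 461 bp wide, with a fold of 3.73, a q of 0.00144 and 22 fragments. It took in the hairpin of miR-377 at 109740510 to 109740577, 290 bp from the summit. The mature forms are given with the seed, bases 2 to 8, in capitals.
mmu-miR-377-5p: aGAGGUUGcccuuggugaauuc
mmu-miR-377-3p: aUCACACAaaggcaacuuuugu
This was the only member whose peak overlapped a hairpin of the RefSeq microRNA table.

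LncRNA sequence held more summits per length than sequence outside genes and fewer than protein-coding genes. The 2335 members fell in 168 Mb of lncRNA-only sequence, or 13.9 per Mb (13.3 to 14.4). Protein-coding genes with their 1 kb flanks had 17.9 per Mb (17.6 to 18.1). Sequence outside all listed genes had 12.3 per Mb (12.1 to 12.5), and other listed genes, such as pseudogenes and small RNA genes, had 9.72 (8.69 to 10.8). The 4 intervals did not overlap. With only entries of q 0.05 or less, lncRNA sequence had 3.11 per Mb (2.85 to 3.38) and sequence outside genes 2.89 (2.79 to 2.99), and these intervals overlapped, while protein-coding genes stayed above both at 4.21 (4.08 to 4.34). Sequence outside genes includes runs of unknown bases and repeats in which no peak can be called, and how much they lower its density was not tested.

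**Figure D1:**
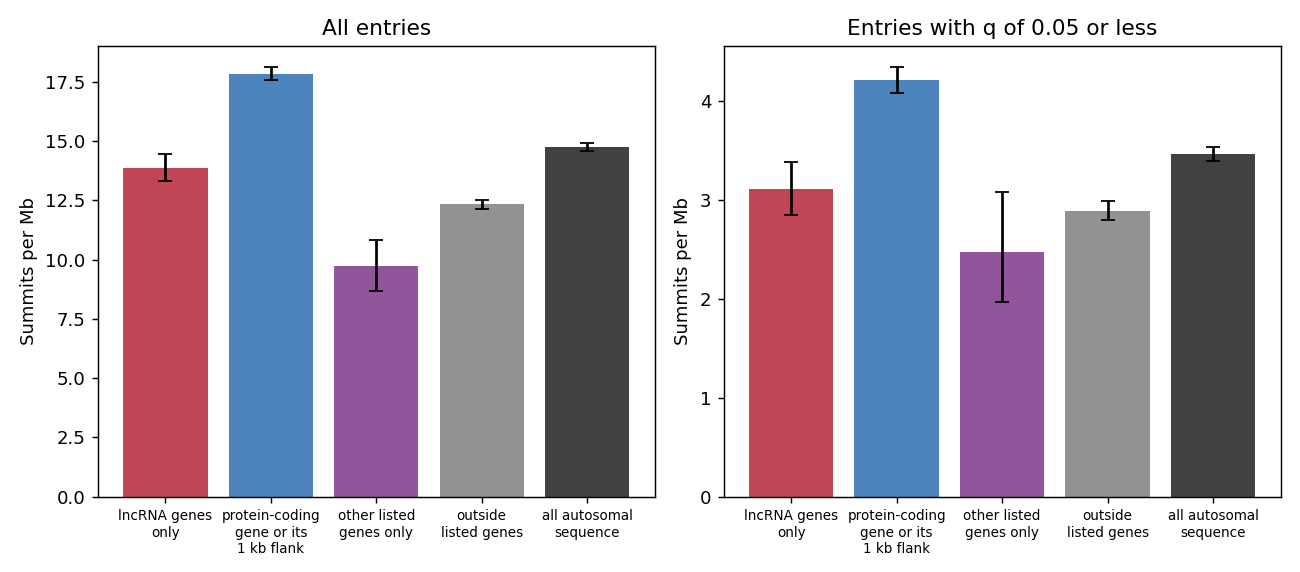
Summits per Mb in lncRNA-only sequence, protein-coding genes with 1 kb flanks, other listed genes, sequence outside listed genes and all autosomal sequence, for all entries (left) and for entries with q of 0.05 or less (right). Bars are densities and lines exact 95% Poisson intervals; lncRNA-only sequence stands at 13.9 per Mb on the left, between 12.3 outside genes and 17.9 in protein-coding genes.

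Single summits in lncRNA genes were as strong as summits elsewhere in the list, and no stronger. The fold, as the authors' caller gave it, had a median of 2.77 among members (quartiles 2.49 and 2.94), the same values as over all autosomal entries. At a given control level the fold moves in whole-fragment steps, and 343 members shared the median fold, so equal medians are a coarse measure. The mean log2 fold was 1.449 among members and 1.451 over all autosomal entries. The median member held 15 fragments (quartiles 14 and 17), and 71.3% of members stood over the commonest control level of 4.78, against 71.1% of all entries. Member peaks were short, with a median of 222 bp, and 22.0% (514 members) were at 190 bp, the shortest length in the list, against 22.3% of all autosomal entries. A q of 0.05 or less was reached by 523 members, or 22.4% (20.7 to 24.1), beside a background of 23.5% over all autosomal entries, so the share of members was near the background. The largest fold differed, since members ended at 4.50 and the list at 49.6. A control level above 2 times the commonest one was found at 1 member and at 94 autosomal entries.

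**Figure D2:**
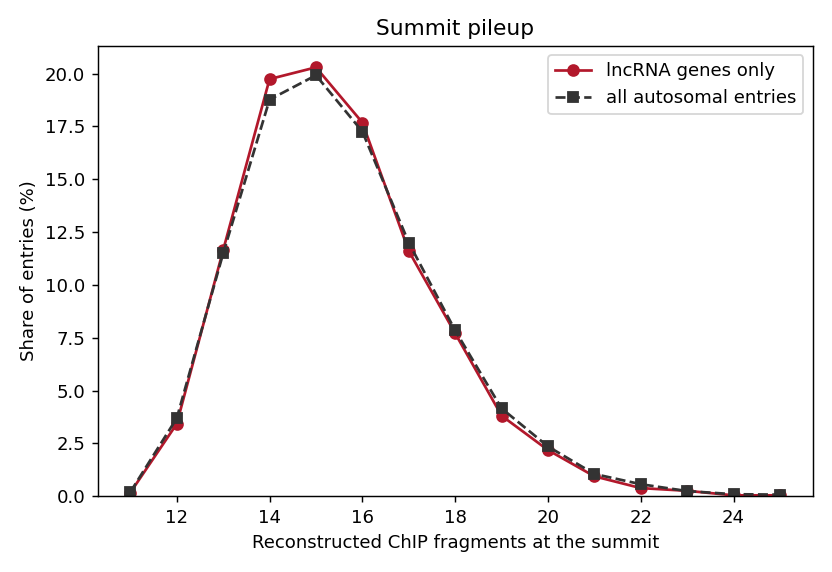
Share of entries, in percent, by the reconstructed number of ChIP fragments at the summit, for members (red circles) and all autosomal entries (dark squares). Both curves peak at 15 fragments, with 20.3% of members and 19.9% of all entries; entries above 25 fragments, among them 1 member with 37, are not drawn.

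The strongest member, at a fold of 4.50 with q 6.06e-06 and 25 fragments, lay in Gm35532 on chromosome 2 (178428561 to 178428815). It was 1.87 kb from Cdh26, a cadherin gene, and so close to the limit of the rule. Gm42188 on chromosome 3 followed with a fold of 4.18 at 19384909, 73.6 kb from Pde7a, which encodes a cyclic AMP phosphodiesterase. A fold of 4.15, or 23 fragments, was shared by B230206L02Rik on chromosome 11, 1700006H21Rik on chromosome 13, Gm41684 on chromosome 18 and Gm39185 on chromosome 8. Their nearest coding genes were Spag9, a kinase scaffold gene, at 12.8 kb, Zswim6 at 32.8 kb, Nrep at 54.0 kb and Naf1, an assembly factor gene for telomerase and snoRNA particles, at 27.7 kb. The transcript 2610316D01Rik held a summit of 4.13 on chromosome 3, 43.3 kb from Pcdh10, a protocadherin gene. Gm38446, Gm11690 and Gm40519 each held one of 3.98, with Gm11690 lying 165 kb from Sdk2, a synaptic recognition gene. These 10 summits lay in 10 different genes, and their q ran up to 0.000497.

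The widest members were not the strongest. Gm36124 on chromosome 18 had a peak of 606 bp with a fold of 3.11, and Gm35335 on chromosome 6 one of 605 bp with a fold of 2.94. Peaks of 593 bp in 6030407O03Rik, 550 bp in D930030F02Rik and 537 bp in Gm32141 had folds of 2.59, 2.77 and 2.94. Among these 5 only the Gm36124 peak had a q of 0.05 or less, at 0.0390.

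Members were spread thinly over many genes. Of 9414 lncRNA genes with any lncRNA-only sequence, 1718 (18.2%) held a member. A single member was found in 1281 genes, 2 in 296, 3 or 4 in 113, and 5 or more in 28. As 94 members lay in 2 overlapping lncRNA genes, the gene counts add to more than 2335. The share of genes with a member followed the length available. In the fifth of genes with the least lncRNA-only sequence (median 1.65 kb) 2.66% held one, and in the fifth with the most (median 42.6 kb) 47.1% did. Per length the order ran the other way, with 16.9 per Mb (12.5 to 22.2) in the first of these groups, 18.4 (15.5 to 21.6) in the next and 12.7 (12.1 to 13.4) in the last. The groups between had 15.2 (13.3 to 17.3) and 16.1 (14.7 to 17.6), so only the longest group stood below the other 4, and its interval overlapped that of the shortest and, narrowly, that of the middle one.

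Models without a curated transcript held summits as densely as curated ones. LncRNA genes with a curated RefSeq record (NR) had 13.2 summits per Mb (12.3 to 14.2), and genes with predicted records had 14.1 (13.5 to 14.8). Genes with a given name had 14.2 per Mb (11.6 to 17.1) against 13.8 (13.3 to 14.4) for those known only by a clone or Gm number. The density intervals overlapped in both cases. A q of 0.05 or less was reached by 14.8% of summits in genes with a given name. The share was 22.7% in genes without one, beside the background of 23.5%.

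The 10 genes with most members were long, and 9 of them held more than the mean lncRNA-only density gives for their length, as a choice by count favours. Gm32647 on chromosome 7 held 15 over 1284 kb, 1.17 per 100 kb (0.654 to 1.93), where the mean lncRNA-only density gives 17.8. Its folds ran from 2.01 to 3.63, and 5 had a q of 0.05 or less. The curated gene 5730522E02Rik on chromosome 11 held 13 over 594 kb, against 8.24 at the mean density, with folds of 2.11 to 3.21. Gm33655 on chromosome 4 held 10 over 288 kb of lncRNA-only sequence, or 3.47 per 100 kb (1.67 to 6.39), against 3.99 summits at the mean density. Its folds were 2.41 to 3.46, and 4 of the 10 had a q of 0.05 or less. Among the 10 genes, the interval of Gm33655 alone lay above the mean density of 13.9 per Mb.

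The next 7 genes held 6 to 8 members each. The transcript 6530403H02Rik on chromosome 3 held 8, one of them with a fold of 3.80, and Gm13481 on chromosome 2 also held 8, with folds from 2.05 to 3.46. All 8 in Gm13481 had Acvr2a, an activin receptor gene, as the nearest coding gene. Also with 8 was 2610307P16Rik on chromosome 13, whose folds kept to 2.76 to 3.11. For 7 of these the nearest coding gene was Sox4, a neuronal differentiation factor gene. The 7 in A330033J07Rik had Id4, a neural progenitor regulator gene, as nearest coding gene, and their folds were 2.14 to 3.29. The mean density gives 2.99 summits for that gene. A930011G23Rik on chromosome 5 held 7 as well, 4 of them with a q of 0.05 or less. Gm46414 on chromosome 13 held 6 over 163 kb, where the mean density gives 2.27, from a fold of 2.27 to one of 3.80. A230004M16Rik on chromosome 11 also held 6, against 2.76 at the mean density, and its fold of 3.46 stood apart from the others, which ran from 1.91 to 2.59. The 10 genes with most members were picked for their number of summits, so their counts are a description.

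**Figure D3:**
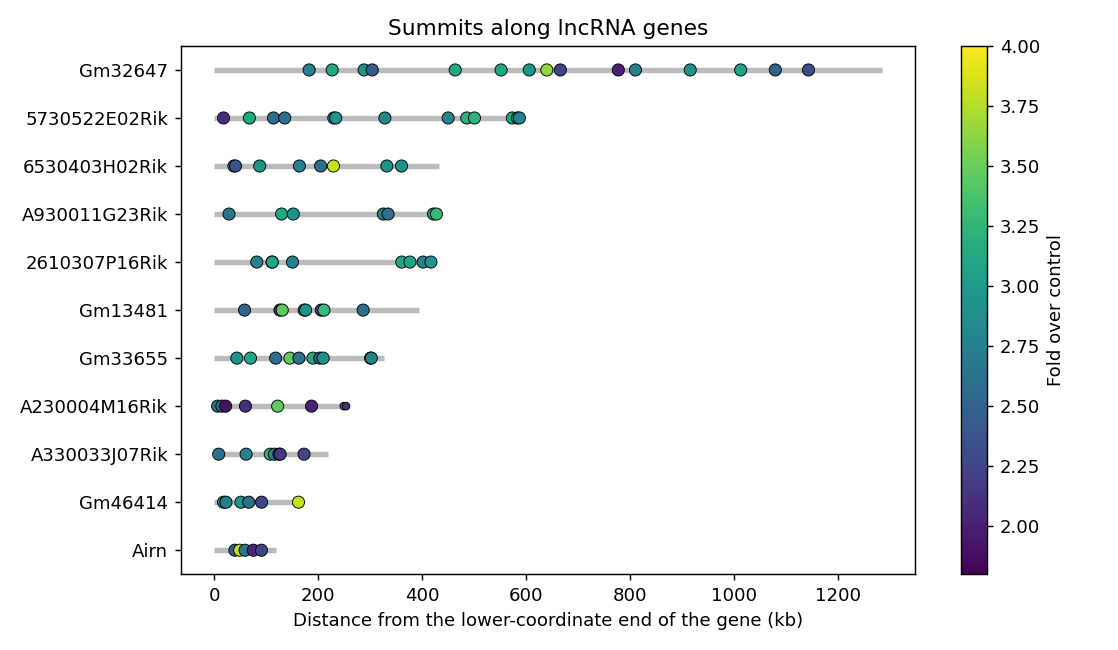
Positions of summits along the 10 lncRNA genes with most members and along Airn, in kb from the lower-coordinate end of each gene (grey bar), coloured by fold over control. Large points are members and the 2 small points in A230004M16Rik are summits too close to a protein-coding gene; the 15 summits of Gm32647 are spread over its 1284 kb, while the 5 of Airn lie in its middle part.

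Imprinted lncRNAs differed widely among themselves. Of 8 listed genes with lncRNA-only sequence, 4 held a member, beside 18.2% of all 9414. The median lncRNA-only sequence per gene was 39.6 kb here against 8.15 kb in all. Together the 8 genes had 10.6 per Mb (4.86 to 20.2), beside 13.9 over all lncRNA-only sequence. Airn is known for silencing Igf2r on the paternal chromosome, but whether it was transcribed in these neurons was not measured. Airn held 5 members in the 67.1 kb of chromosome 17 that are free of coding genes. That is 7.45 per 100 kb (2.42 to 17.4), where the mean density gives 0.931 summits. The Airn summits had folds of 2.42, 3.80, 2.66, 2.06 and 2.25 in order of position, so that 1 stood above the rest, and that one alone had a q of 0.05 or less (0.00162). All 5 fell between 40.2 and 91.2 kb from the lower end of the gene. Mirg held the summit at miR-377 described above. In the same region Meg3, a maternally expressed RNA abundant in neurons, and Rian, a snoRNA host, held none, and the mean density gives 0.318 and 0.781 for their lengths. Snhg14, the long host transcript that is antisense to Ube3a in neurons, held 2 members over 670 kb, or 0.299 per 100 kb (0.0362 to 1.08), where the mean density gives 9.29. Their folds were 2.77 and 2.59, and the gene held 12 summits when those inside or near coding genes are counted. Nctc1, near H19, held 1 with a fold of 2.59, and H19 and Ipw held none. Repeated sequence, such as snoRNA gene arrays in which reads map to several places, was not assessed, and its part in the low count at Snhg14 was not tested.

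LncRNAs of the developing brain held members in 9 of 19 genes (47.4%, beside 18.2% of all), at 14.0 per Mb (6.97 to 24.99), an interval that includes the 13.9 of all lncRNA-only sequence. The median lncRNA-only sequence per gene in the group was 19.9 kb, also above that of all genes. Miat, a nuclear RNA of neurons, held 1 summit at 112225822 on chromosome 5, with a fold of 3.46 and a q of 0.0102. Rmst, a neurogenesis RNA that partners SOX2, held 1 of the same fold at 92117759 on chromosome 10. Otx2os1, opposite the forebrain regulator gene Otx2, and Mir9-3hg, a host of miR-9, each had a highest fold of 2.94, with q of 0.0675. Nkx2-2os held 2 members, the higher with a fold of 2.77. Folds of 2.77 in Lncenc1, 2.59 in Dlx6os1, which overlaps the interneuron gene Dlx6, 2.42 in Pantr1 beside Pou3f3 and 2.25 in Tunar had q from 0.110 to 0.405. Sox2ot, which contains the gene of the progenitor factor SOX2, held none in 113 kb, where the mean density gives 1.57.

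Among abundant, widely expressed lncRNAs, 3 of 13 listed genes held a member (23.1%, beside 18.2% of all), at 11.1 per Mb (3.01 to 28.3), an interval that includes 13.9. Malat1, a nuclear speckle RNA and among the most abundant RNAs of neurons, held 1 at 5796222 on chromosome 19, with a fold of 2.77, a q of 0.110 and 15 fragments. Neat1, the scaffold of paraspeckles that lies beside it, held none in 20.8 kb. Pvt1, downstream of Myc, held 2 of equal fold, 2.94, at 62188859 and 62208712 on chromosome 15. Miat, given above, is the remaining gene of the list with a member. The mean density gives 0.0969 summits for Malat1, 0.288 for Neat1 and 3.08 for Pvt1.

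Host genes of small RNAs are transcribed so that microRNAs or small nucleolar RNAs can be cut from them. MicroRNA hosts held members in 4 of 13 genes (30.8%, beside 18.2% of all). Their median lncRNA-only sequence per gene was 15.5 kb against 8.15 kb in all. Their density was 11.6 per Mb (5.01 to 22.9), an interval that includes 13.9. Mir100hg, a host of the neighbouring miR-100 and let-7 genes, held 4 over 239 kb, with a highest fold of 2.94. Mir670hg held 1 with a fold of 3.29 and a q of 0.0208, the only one of this group with a q of 0.05 or less, and Mir99ahg held 1 of 2.77. Snhg14 was the only one of 15 snoRNA hosts with a member, and the group had 2.79 per Mb (0.337 to 10.1). That interval lies below the 13.9 of all lncRNA-only sequence, but Snhg14 makes up 670 kb of the 0.718 Mb in the group, whose median gene had 2.75 kb.

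Opposite-strand lncRNAs are read against the strand of a neighbouring coding gene, often one for a developmental transcription factor. They were taken by symbol alone, from names ending in os or as with or without a digit, and strand was not checked. The pattern also takes in Gas5, a snoRNA host whose name has another origin and which held no member. Here 26 of 117 such genes (22.2%, beside 18.2% of all) held 40 members, 18.4 per Mb (13.2 to 25.1), an interval that includes 13.9, and 3 of the 40 had a q of 0.05 or less, beside the background of 23.5%. Hand2os1 led with a fold of 3.63 (q 0.00437), 5.39 kb from Hand2, a heart and sympathetic neuron factor gene. Prox1os, beside the hippocampal and lymphatic factor gene Prox1, held 2, with folds of 3.29 and 2.59. Hectd2os held 3, the highest at 3.11. Dlx4os held 2 with folds of 2.94 and 2.77. Junos, named for the early response gene Jun, held 2 with folds of 2.94 and 2.77, at 76.2 and 102 kb from Jun. Pax6os1, opposite the cortical progenitor gene Pax6, held the most of the group, 4, with folds from 2.59 to 2.79, and was named outside the naming rule because of that count. The 3 members with a q of 0.05 or less were the higher ones of Hand2os1, Prox1os and Hectd2os.

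Per length, summits were denser within 1 kb of annotated lncRNA starts and gene ends than in the sequence between. Starts were taken from the RefSeq windows, which gave one for 9291 of the 12408 autosomal lncRNA genes (74.9%), on 18 of the 19 autosomes. Of 11311 such starts, 9005 lay exactly at an end of the gene span, so not all mark a gene end. Within 250 bp of a start there were 44 summits, 21.8 per Mb (15.8 to 29.2). From 0.25 to 1 kb the density was 17.3 per Mb (14.0 to 21.0), from 1 to 5 kb 15.1 (13.7 to 16.7), and beyond 50 kb 11.2 (9.81 to 12.6). Sequence beyond 50 kb comes from long genes, and the fifth of genes with most lncRNA-only sequence had 12.7 per Mb. Gene length thus moves with this fall and was not separated from it. Within 1 kb of a start it was 18.4 (15.5 to 21.7) and within 1 kb of the other end 18.99 (15.8 to 22.7), while lncRNA-only sequence away from both had 13.5 (12.8 to 14.1). The intervals at starts and ends overlapped, and neither overlapped that of the sequence between. A larger share of a short gene lies within 1 kb of its ends, so gene length was not separated from this contrast either. Protein-coding genes had 26.8 per Mb (24.8 to 29.0) inside the gene within 1 kb of its start and 17.6 (17.4 to 17.9) over 1 kb from a start. Both values lay above the 18.4 and 13.5 of lncRNA-only sequence. The 17.6 keeps gene ends, however, which the 13.5 leaves out.

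**Figure D4:**
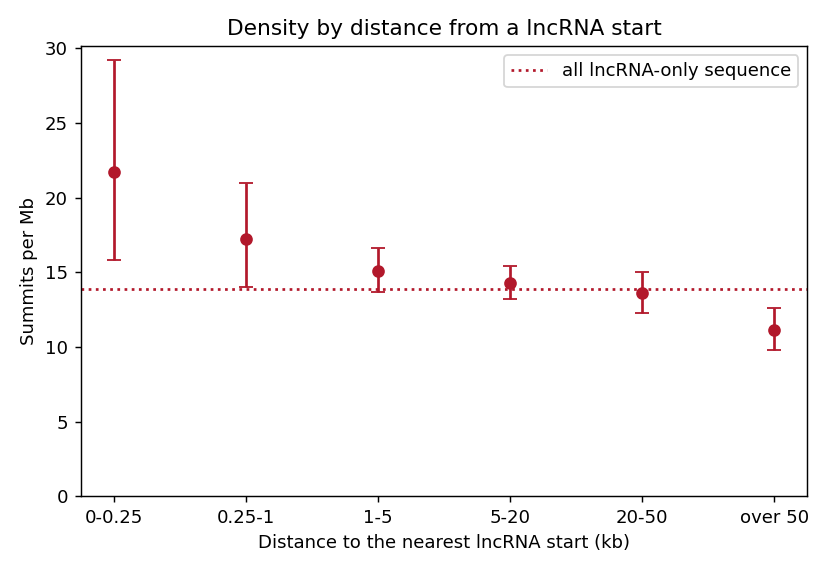
Member summits per Mb of lncRNA-only sequence by distance to the nearest lncRNA start, for genes with a start in the RefSeq windows. Points are densities with exact 95% Poisson intervals and the dotted line is the density of all lncRNA-only sequence; the values fall from 21.8 within 0.25 kb to 11.2 beyond 50 kb.

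Strength did not rise toward starts with density. The median fold was 2.76 within 250 bp and 2.77 from 1 to 5 kb, and q was 0.05 or less at 18.2% and 25.6% of these summits. Within 1 kb of a start 29 of 143 summits (20.3%) had such a q, near the background of 23.5%, and at protein-coding starts 171 of 629 (27.2%) did. Distance from coding genes moved with the contrast. Among summits 1 to 50 kb from a coding gene, sequence at lncRNA starts had 18.2 per Mb (14.3 to 22.8) and the rest 15.2 (14.1 to 16.3), with overlapping intervals. Farther than 50 kb the values were 18.7 (14.5 to 23.8) and 12.8 (12.01 to 13.6), which did not overlap. Over 3708 lncRNA genes of at least 5 kb that were free of coding sequence along their whole length, the 5 equal parts from start to end held 20.7%, 19.2%, 19.02%, 19.3% and 21.8% of 1383 summits, and their intervals overlapped.

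Letters at the starts that members touched were set beside those of all lncRNA starts. A member peak overlapped 41 start windows of 39 genes, out of 7083 windows that start in lncRNA-only sequence. The median G and C content was 49.0% in the 41 and 47.0% in all. A CpG ratio, observed over expected, of 0.6 or more, as in CpG islands, was found in 0 of the 41. It was found in 421 of all windows (5.94%). For the 41 the approximate upper limit is 7.32%, taken as 3 counts over 41 and not exact. The loose AP-1 pattern TGANTCA, searched on both strands, was in 6 of the 41 (14.6%) and in 10.5% of all. It allows any middle base, so these shares also count forms outside the AP-1 consensus. The cyclic AMP response element TGACGTCA was in 0 of the 41 and 0.819% of all, and the EGR core GCGTGGGCG in 0 and 0.0988%. The E-box CANNTG was in 73.2% and 80.0%. None of these motifs contains another of them, though matches can share bases. The 41 windows are few, and these shares were not tested.

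Density was lower far from protein-coding genes, in lncRNA genes and outside them, though in lncRNA genes it did not fall at every step. The median member was 62.2 kb from the nearest coding gene (quartiles 18.3 and 166 kb). Members had 16.5 per Mb (14.1 to 19.1) at 1 to 5 kb and 10.9 (9.99 to 11.98) beyond 200 kb, and sequence outside listed genes had 15.0 (14.3 to 15.8) and 10.7 (10.4 to 11.02) at the same distances. The density was higher in lncRNA genes in each of the 6 distance ranges. The intervals were apart in 2 of them, at 5 to 20 kb (16.2 against 13.7 per Mb) and at 100 to 200 kb (15.0 against 11.8). At the limit of the rule, 48 members lay 1 to 2 kb from a coding gene, with a median fold of 2.78, and 59 lncRNA summits within 1 kb were left out, with a median fold of 2.59. A further 832 summits in lncRNA genes lay inside a coding gene.

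**Figure D5:**
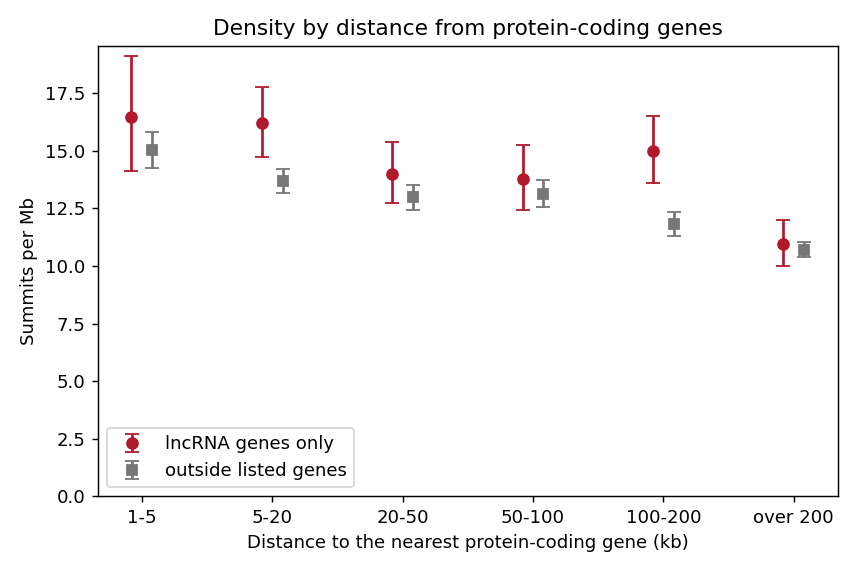
Summits per Mb by distance to the nearest protein-coding gene, for lncRNA-only sequence (red circles) and sequence outside listed genes (grey squares), with exact 95% Poisson intervals. Both are lowest beyond 200 kb, at 10.9 and 10.7 per Mb, and they differ most at 100 to 200 kb, with 15.0 and 11.8.

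Members had about as few close neighbours, counted among all autosomal summits, as summits outside genes did. Another summit stood within 5 kb of 336 members (14.4%, 13.0 to 15.9), against 14.2% outside listed genes and 20.4% (19.8 to 21.0) in protein-coding genes with their flanks. The median distance from a member to the nearest summit of any kind was 22768 bp, against 16916 bp in coding genes. Density was also lower, at 13.9 against 17.9 per Mb, and its part in this was not tested. Sox1ot, beside the progenitor gene Sox1, held the closest pair among lncRNAs with a given name, 989 bp apart, with folds of 2.92 and 2.64, and was named after its values were seen. By chromosome, member density was lowest on chromosome 14, at 11.4 per Mb, and highest on chromosome 11, at 18.2, and the density of all entries was lowest and highest on the same chromosomes, at 11.9 and 18.4.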

How the data were processed

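The authors deposited 1 peak list in narrowPeak layout without a header, pooled over libraries. The submitters' processing notes name FastQC, Trimmomatic, BWA, SAMtools and MACS2, with builds mm10 and GRCm38.p6; versions, settings and duplicate handling were not given in the sources used here. Fold (a linear ratio of pileup over control), −log10 p and −log10 q are the authors' deposited values per peak. The deposited display score was not used, and deposited positions were made 1-based. Pileup and control level were reconstructed as the whole-number pileup that gives both fold and p (within 0.002 of −log10 p), which worked for 35307 of 35315 autosomal entries and all 2335 members.

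Gene spans and types came from RefSeq on GRCm38.p6, where 12408 autosomal genes are lncRNA and 20661 protein-coding; exons were not used here. Start windows and microRNAs came from RefSeq sequence tables. Densities divide summits by the union of the sequence concerned, between the first and last summit of a chromosome for sequence outside genes. Intervals are exact Poisson or exact binomial (Clopper-Pearson) at 95%, computed with SciPy 1.17.1 in Python 3.11.15. The upper limit for 0 of 41 start windows is instead 3 counts over 41, an approximation. The interval arithmetic and the reconstruction were tested on simulated data. No test between groups was made. Named genes were the 10 with most members (ties by fold), the 10 strongest and 5 widest members, up to 5 holders per gene list, and 7 well-known lncRNAs; other names were added after values were seen. Lists were imprinted, brain, widely expressed, microRNA host, snoRNA host, opposite-strand and unnamed lncRNAs. Members, lists and rule were chosen with earlier results of these data known. Summit-centred sequence of the strongest members, as planned, was not analysed here.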

Additional observations from a re-analysis of the deposited data

How the results depend on the processing

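The number of members, their density, their median fold, the share with q of 0.05 or less and the number of genes holding one were recomputed, each under some of the other settings. Of 22 values, 15 stayed within their counting interval or, for counts, within 1.5 times. With entries of q 0.05 or less there were 523 members at 3.11 per Mb, with a median fold of 3.28, and with lncRNA genes of a given name 108 members. With fold at or above the median the density was 7.28 per Mb, against 6.46 outside genes. The share of members under a q limit of 0.01 was 3.17%, and under 0.1 it was 40.2%, against 3.51% and 40.7% of all autosomal entries. These 7 changes follow from keeping fewer or more entries or genes. Flanks of 0 and 5 kb left the number of members, their density, their median fold and the number of genes within those limits. The whole interval in place of the summit did so for the number of members, the share with q of 0.05 or less and the number of genes, and leaving out peaks of high control level did so for the median fold; these settings were not run for the other values. No identical intervals existed to merge. No paired analysis was possible because the list is pooled over libraries. Depth per library is unknown, and at a median of 15 fragments a single summit is weak evidence for its gene.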

Other observations

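On chromosome X, which the rule leaves out, 4 summits met the same conditions in 4.88 Mb of lncRNA-only sequence. That is 0.820 per Mb (exact 95% Poisson interval 0.223 to 2.10). Of the 35539 entries in the list 35315 were autosomal, so few lay on X in any sequence. The density of all entries on X was not computed, so this value says nothing particular about lncRNA genes. The member with the most fragments, 37 at 6966662 on chromosome 14 in Gm32041, stood over a control level of 11.6 and had a fold of only 3.01, with a q of 0.000233. It was named after its values were seen.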
